A study of Mus musculus with 12 samples.

Results

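The regions described here are the ATAC-seq peaks around 7 mouse genes of the neurogenic basic helix-loop-helix (bHLH) family: Neurod1, Neurog1, Neurog2, Neurog3, Atoh1, Olig1 and Olig2. ATAC-seq inserts adapters into open chromatin with the Tn5 transposase, so the reads that fall in a peak measure how accessible that stretch of DNA is. A peak was taken as a member where it overlapped the gene body extended by 20 kb on each side (GENCODE M21, build GRCm38). This gave 24 of 91354 peaks in the BGI-derived table and 30 of 87027 peaks in the Illumina-derived table, and every gene had at least 1 peak in each. OMNI-ATAC-seq libraries had been made from mouse embryonic fibroblasts (MEF, FACS-sorted as Thy1+) and mouse embryonic stem cells (mESC, sorted as Thy1-, Ssea1+ and Epcam+), all of C57/Bl6 background, cultured and untreated, from 3 biological replicates of each cell type. The replicates are numbered 1, 2 and 4 for MEF and 1, 3 and 5 for mESC, and each of the 6 libraries was read on a DNBSEQ-G400 (BGI) and on a HiSeqX10 (Illumina), which gives 12 samples in 4 groups of 3.

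bHLH factors of this family bind the E-box, CANNTG, as heterodimers with the widely expressed E proteins. Id proteins take up the E proteins, and Notch signalling through the Hes and Hey repressors keeps the neurogenic genes low in neighbouring progenitors. Neurog1 and Neurog2 commit progenitors to a neuronal fate and Neurod1 acts later in neuronal and endocrine differentiation. Neurog3 specifies the endocrine progenitors of the pancreas, Atoh1 specifies cerebellar granule neurons and the hair cells of the inner ear, and Olig2 specifies motor neurons and, with Olig1, oligodendrocytes. None of these fates is that of an embryonic stem cell or a fibroblast. RNA data were not used here, so the values describe chromatin and not expression.

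The 7 genes lie on 6 chromosomes, and Olig2 and Olig1 are neighbours on chromosome 16. Of the BGI-derived member peaks, 16 were intergenic at their centre, 3 lay in introns, 3 in coding exons, and 1 each in a UTR and a non-coding exon. A peak that reaches to within 1 kb of an annotated start of the gene is called a promoter peak here, and 9 BGI-derived and 12 Illumina-derived members were promoter peaks. Neurog3 had no promoter peak in the BGI-derived table, where its only member peak lay 5.12 kb downstream of its start. Illumina-derived data placed 1 peak at 0.68 kb downstream of that start.

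The DNA before the starts of 6 of the 7 genes held more CpG than the median promoter, a feature that the choice of members did not use, and Neurog2 was the exception. The 200 bases before the start held 16 CpGs at Olig2, 17 at Olig1, 20 at Neurog1, 14 at Neurog3, 14 at Atoh1, 11 at Neurod1 and 6 at Neurog2. The median was 7 over 21933 promoters of the same length, taken directly before the start. At Neurod1 the stretch was moved upstream past an exon of another gene that covers the start, to chr2:79456786-79456985, so its counts are not from the same position. Those of Olig2, Olig1, Neurog1 and Neurog3 are printed next because they cover the widest range of accessibility, from the promoters that were most open in mESC (Olig2 and Olig1) to a gene where no peak covered these 200 bases (Neurog3). Capitals mark CpG, bases run 5′ to 3′ on the strand of the gene, and the sequences are those of RefSeq for GRCm38.p6. The stretches are chr16:91225257-91225456 (plus strand) for Olig2, chr16:91269572-91269771 (plus) for Olig1, chr13:56252164-56252363 (minus) for Neurog1 and chr10:62132890-62133089 (plus) for Neurog3.
Olig2: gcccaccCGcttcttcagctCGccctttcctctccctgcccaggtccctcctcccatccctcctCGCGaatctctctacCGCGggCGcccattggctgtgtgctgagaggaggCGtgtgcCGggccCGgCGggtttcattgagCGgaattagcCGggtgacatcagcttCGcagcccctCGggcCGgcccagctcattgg
Olig1: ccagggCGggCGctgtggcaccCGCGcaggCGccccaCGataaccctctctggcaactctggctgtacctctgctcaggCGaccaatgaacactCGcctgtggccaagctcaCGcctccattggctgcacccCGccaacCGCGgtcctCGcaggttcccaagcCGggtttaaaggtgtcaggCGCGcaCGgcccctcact
Neurog1: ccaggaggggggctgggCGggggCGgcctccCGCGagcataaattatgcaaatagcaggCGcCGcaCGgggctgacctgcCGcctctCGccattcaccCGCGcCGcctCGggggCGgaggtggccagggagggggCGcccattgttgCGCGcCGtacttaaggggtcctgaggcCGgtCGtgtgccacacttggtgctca
Neurog3: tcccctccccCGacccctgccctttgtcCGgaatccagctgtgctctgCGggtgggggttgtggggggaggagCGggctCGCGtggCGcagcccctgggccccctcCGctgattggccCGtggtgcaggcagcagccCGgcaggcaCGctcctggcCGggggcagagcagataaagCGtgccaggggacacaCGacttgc
The first 3 stretches lay whole inside a peak of both tables, and 0 bases of the Neurog3 stretch lay inside a peak of either. An E-box (CANNTG, which reads the same on both strands) was found in 3 of the 7 stretches, those of Neurod1, Neurog1 and Neurog3, and in 55.5% of all promoters of this length.

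A pair of members away from promoters is printed for contrast, because they had the largest rises on BGI among the members: the middle of the peak 4.04 kb upstream of Olig2 (chr16:91221321-91221520) and of the peak 15.82 kb downstream of Neurog1 (chr13:56236242-56236441), both on the plus strand, again with CpG in capitals.
Olig2 upstream peak: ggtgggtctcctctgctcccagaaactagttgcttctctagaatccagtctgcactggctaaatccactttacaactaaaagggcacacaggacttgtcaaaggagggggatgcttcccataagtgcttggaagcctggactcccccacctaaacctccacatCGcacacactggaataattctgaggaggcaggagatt
Neurog1 downstream peak: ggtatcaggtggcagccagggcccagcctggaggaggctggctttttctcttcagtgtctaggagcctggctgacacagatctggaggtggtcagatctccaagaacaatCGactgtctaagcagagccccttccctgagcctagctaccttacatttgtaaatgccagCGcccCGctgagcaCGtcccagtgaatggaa
They held 1 and 4 CpGs. The Neurog1 downstream stretch had 2 E-boxes and the Olig2 upstream stretch had 0. Over whole peaks of 502 bp, the 24 BGI-derived members had a median GC content of 59.8% and a median observed-to-expected CpG ratio of 0.62, against 51.0% and 0.28 over all peaks. The 9 promoter members were at 62.9% and 0.77 (all promoter peaks 58.8% and 0.61), and the 15 others at 58.8% and 0.53 (all peaks away from promoters 48.8% and 0.23). E-boxes were not more frequent in the members: 21 of 24 held one (87.5%), against 90.5% of all BGI-derived peaks.

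Reads in peaks ranged from 20085886 to 21662775 per MEF sample and from 15860985 to 16958488 per mESC sample, after the authors had down-sampled the libraries to 60000000 reads for MEF and 45000000 for mESC. Levels are given as counts per 1000000 reads in peaks (CPM), which can be set side by side between peaks because every member peak of these tables is 502 bp wide. Most markers of each labelled cell type were in place, as 8 of 9 mESC marker promoters were higher in mESC on each platform. The exception, Fut4, went the other way and was called lower in mESC, by 0.67 on BGI and 0.80 on Illumina on the log2 scale. Of 10 MEF marker promoters 9 were lower in mESC, and Pdgfra was not called. Among BGI-derived values, Esrrb was higher by 6.12 on the log2 scale in mESC, Nanog by 4.46, and Thy1 fell by 1.72.

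Chromatin at the 7 genes was more open in mESC than in MEF. All 24 BGI-derived member peaks and all 30 Illumina-derived member peaks were higher in mESC at an adjusted p under 0.05 (edgeR's quasi-likelihood test, Benjamini-Hochberg adjustment over all peaks), and none was lower. In the same tests 40.9% of all BGI-derived and 42.1% of all Illumina-derived peaks were higher in mESC. The log2 fold change of the members ran from 0.69 to 3.53 with a median of 2.03 on BGI, and between 0.73 and 3.62 with a median of 1.69 on Illumina, against medians of −0.08 and −0.03 over all peaks. A log2 fold change of 1 or more was passed by 21 of 24 and 25 of 30 members, and by 33% and 33.6% of all peaks. In each member the 3 mESC values lay above the 3 MEF values, which held for 42.9% of all BGI-derived and 43.7% of all Illumina-derived peaks.

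How a peak entered the tables bears on that count. A peak stands in a table because it was on the authors' list of reproducible peaks of MEF, of mESC or of both. The lists keep peaks with a depth-scaled score of at least 3 in at least 2 samples. A site off a list may therefore still have been called in single samples. Of the 24 BGI-derived members, 17 were on the mESC list only, where 93.9% of all peaks were higher in mESC. Of the 30 Illumina-derived members, 23 were on the mESC list only, where the share was 93.3%. For these members the direction is therefore close to what their list gives. The other 7 members on each platform were on the MEF list, and all 7 were higher in mESC. Of all peaks on that list, 10.5% of the BGI-derived and 11.2% of the Illumina-derived ones were. Of these 7, 6 on each platform were on the mESC list as well, and 21.4% of all BGI-derived and 21.9% of all Illumina-derived peaks on both lists were higher in mESC. The remaining one, the Atoh1 peak in the coding exon, was on the MEF list only, where the shares were 0.267% and 0.506%. It was not closed in mESC, as its BGI-derived mean there was 13.8 CPM, against a median of 12.5 CPM over the BGI-derived members. The log2 fold changes of the 7 ran from 0.86 to 2.86 on BGI with a median of 1.09, while the median over all peaks was −0.87 on the MEF list and −0.15 on both lists. These 7 were the promoter peaks of Olig1 and Olig2, the Atoh1 peak in the coding exon, the Neurod1 peak in the coding exon, and 3 peaks of Neurog2. Neurog1 and Neurog3 had no peak on the MEF lists, although each MEF sample had 2 to 3 called summits within 1 kb of the Neurog1 start.

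Olig2 and Olig1 had the highest promoter levels in mESC and rose from low levels in MEF. At the Olig2 promoter peak, centred 0.08 kb upstream of the start (chr16:91225130-91225631), BGI-derived values were 6.14, 6.36 and 5.18 CPM in MEF and 37.1, 52.3 and 45.5 CPM in mESC. The difference was 2.86 on the log2 scale (SE 0.14, edgeR adjusted p = 9.05e-12). On Illumina the same peak stood at 5.04, 6.56 and 6.60 CPM in MEF and 39.6, 55.4 and 46.8 CPM in mESC, a difference of 2.92 (SE 0.14). Library 3 was the highest of the mESC libraries on both instruments, and no MEF value came near the mESC range. Among 29802 BGI-derived promoter peaks, the share with a lower mean than Olig2 was 22.1% in MEF and 93.0% in mESC.

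Olig1, whose product acts with Olig2 in oligodendrocyte maturation, lies downstream of it on the same strand. Its promoter peak, 0.09 kb upstream (chr16:91269428-91269929), stood at 7.25, 6.11 and 7.12 CPM in MEF and 39.7, 44.4 and 37.0 CPM in mESC on BGI. The log2 fold change was 2.50 (SE 0.13, edgeR adjusted p = 8.23e-12). Illumina-derived values were 7.79, 6.81 and 6.05 CPM in MEF against 39.6, 48.4 and 39.8 CPM in mESC, and the log2 fold change was 2.58 (SE 0.13). The mESC ranges of Olig1 and Olig2 overlapped, so their order was not separated by the spread between libraries, and in rank Olig1 went from above 26.3% to above 91.0% of promoter peaks.

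Peaks between and around these neighbours followed the same direction. The one 13.83 kb upstream of Olig1 (chr16:91255691-91256192), in the interval between the genes, was nearly closed in MEF at 1.25, 1.29 and 1.29 CPM and stood at 10.7, 10.7 and 10.9 CPM in mESC on BGI (log2 fold change 3.0, SE 0.22). The peak 4.04 kb upstream of Olig2 (chr16:91221170-91221671), whose middle is printed above, rose from 0.969, 0.497 and 0.896 CPM to 7.50, 12.2 and 6.52 CPM, by 3.39 on the log2 scale (SE 0.33, edgeR adjusted p = 2.7e-08). Its Illumina-derived counterpart had the largest rise among the Illumina-derived members, at 3.62 (SE 0.30). The other BGI-derived members were at 1.35 and 2.05 for Olig2 and 2.56 for Olig1, the last of them over a UTR. Illumina-derived data had peaks of their own 2.21 kb upstream, 1.61 kb downstream and 7.10 kb downstream of the Olig2 start, with log2 fold changes of 1.64, 1.46 and 2.12.

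**Figure D1:**
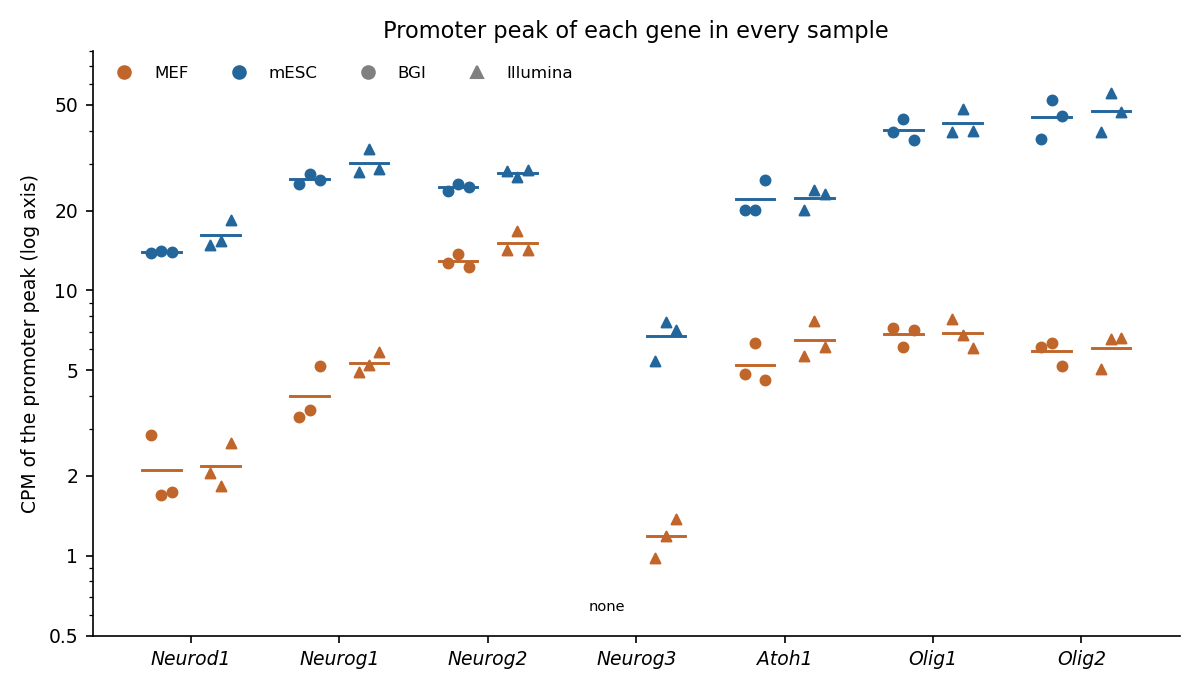
Accessibility of the most open promoter peak of each gene in counts per 1000000 reads in peaks (log axis), with circles for BGI and triangles for Illumina, coloured by cell type. Each point is 1 library and each short line the mean of 3 libraries. At every gene with a promoter peak the mESC points sit above the MEF points. Olig2 and Olig1 are highest in mESC at means of 45 and 40.4 CPM on BGI. Neurog2 is highest in MEF at 12.9 CPM, at its coding exon peak, and Neurog3 has no BGI-derived promoter peak.

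The neurogenins, which commit progenitors to neurons or endocrine cells, differed in how open they already were in MEF. At the Neurog1 promoter peak, 0.21 kb upstream (chr13:56252128-56252629), BGI-derived values were 3.32, 3.53 and 5.18 CPM in MEF and 25.2, 27.4 and 26.0 CPM in mESC. The log2 fold change was 2.64 (SE 0.16, edgeR adjusted p = 9.1e-11), and the mESC libraries lay close together. Illumina-derived data had 2 promoter peaks, the second over separate DNA that no BGI-derived peak covers. The one 0.18 kb upstream went from 4.94, 5.22 and 5.86 CPM to 27.9, 34.0 and 28.6 CPM (2.45, SE 0.13), and the one 0.51 kb downstream, in the coding exon, from 4.90, 4.52 and 6.45 CPM to 9.88, 10.1 and 11.2 CPM (0.93, SE 0.18). The 2 were near each other in MEF and well apart in mESC.

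Away from its promoter, Neurog1 had the largest rise of all BGI-derived members. The peak 15.82 kb downstream of its start (chr13:56236091-56236592), in an intron of 4930550C17Rik, was at 0.323, 0.547 and 0.349 CPM in MEF and 5.42, 4.67 and 4.78 CPM in mESC. The rise was 3.53 on the log2 scale (SE 0.36, edgeR adjusted p = 4.84e-08), from the lowest MEF mean of any BGI-derived member. Its remaining BGI-derived peaks lay 8.46, 7.76 and 7.16 kb upstream, with log2 fold changes of 2.08, 0.69 and 2.11. The middle one was the smallest BGI-derived rise (SE 0.20, edgeR adjusted p = 0.00404), between neighbours that rose more. On Illumina the smallest was also at Neurog1, 14.49 kb upstream, at 0.73 (SE 0.23, edgeR adjusted p = 0.00651). An Illumina-derived peak 6.78 kb upstream had no BGI-derived match and was at 1.60 (SE 0.23).

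Neurog2 had both the most open and the least open promoter peak in MEF among the BGI-derived members. Its peak in the coding exon, 1.15 kb downstream of the start (chr3:127634035-127634536), stood at 12.6, 13.7 and 12.2 CPM in MEF and 23.8, 25.2 and 24.6 CPM in mESC on BGI (0.86, SE 0.12, edgeR adjusted p = 2.09e-06). On Illumina it was at 14.2, 16.7 and 14.2 CPM against 28.1, 26.8 and 28.3 CPM (0.84, SE 0.11). This peak, whose near edge was 900 bp from the start, lay above 51.9% of promoter peaks in MEF. The other promoter members lay above 9.21% to 27.1%, the lowest of them being the Neurog2 peak before the start. The peak before the start behaved differently: 0.38 kb upstream (chr3:127632505-127633006) the values were 1.29, 2.24 and 2.14 CPM in MEF and 8.07, 9.93 and 9.88 CPM in mESC (2.23, SE 0.24, edgeR adjusted p = 1.28e-07). Within this gene the promoter peak that was lower in both cell types had the larger fold change.

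Illumina-derived data gave the upstream Neurog2 peak 2.94, 2.58 and 3.25 CPM in MEF and 12.3, 11.5 and 14.8 CPM in mESC (2.08, SE 0.19). They also had a peak between the 2 sites, 0.33 kb downstream of the start, at 6.20, 4.82 and 5.02 CPM in MEF and 7.13, 11.1 and 9.55 CPM in mESC (0.75, SE 0.20, edgeR adjusted p = 0.00248). There the lowest mESC value was close to the highest MEF value, the narrowest gap of the promoter members. The distal Neurog2 peaks lay 7.64 and 5.32 kb upstream and 6.93 kb downstream, and their BGI-derived log2 fold changes were 1.09, 1.70 and 1.38.

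Neurog3, the endocrine factor of the pancreas, was the least open of the 7. Its only BGI-derived peak, 5.12 kb downstream of the start in an intron of Fam241b (chr10:62137964-62138465), was at 1.48, 2.58 and 2.24 CPM in MEF and 9.08, 9.17 and 7.45 CPM in mESC (1.96, SE 0.24, edgeR adjusted p = 6.95e-07). The Illumina-derived promoter peak in the coding exon (chr10:62133521-62134022), which also lies within 1 kb of a Fam241b start, was at 0.979, 1.19 and 1.38 CPM in MEF and 5.44, 7.61 and 7.07 CPM in mESC (2.45, SE 0.27, edgeR adjusted p = 1.34e-07). Even in mESC it lay above only 18.7% of the 29660 Illumina-derived promoter peaks. It was thus low in both cell types although the fold change was among the larger ones.

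Neurod1, which acts in differentiating neurons and in pancreatic endocrine cells, had a promoter peak 0.11 kb upstream (chr2:79456615-79457116), which also lies within 1 kb of a Cerkl start. BGI-derived values there were 2.86, 1.69 and 1.74 CPM in MEF and 13.8, 14.1 and 14.0 CPM in mESC (2.65, SE 0.22, edgeR adjusted p = 3.26e-09). Illumina-derived values were 2.05, 1.84 and 2.66 CPM against 14.9, 15.4 and 18.4 CPM (2.84, SE 0.19). The most open Neurod1 peak was not at the promoter but in the coding exon, 2.42 kb downstream (chr2:79454083-79454584). It stood at 12, 14.4 and 16.5 CPM in MEF and 28.4, 30.7 and 31.1 CPM in mESC (1.01, SE 0.12, edgeR adjusted p = 4.78e-07), the highest MEF level of any BGI-derived member. That site also reaches to within 1 kb of a start of Gm26755. At Neurog2 too, the highest MEF level was at the coding exon site. An Illumina-derived peak 2.55 kb upstream had a log2 fold change of 2.24.

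Atoh1, the hair cell and granule neuron factor, had 3 promoter peaks on each platform and no other annotated gene in its window. The peak 0.10 kb upstream (chr6:64728777-64729278) was at 4.85, 6.31 and 4.58 CPM in MEF and 20.18, 20.05 and 26.03 CPM in mESC on BGI (2.0, SE 0.17, edgeR adjusted p = 3.65e-09). The peak 1.19 kb upstream (chr6:64727686-64728187) was at 3.88, 6.41 and 5.87 CPM against 15.7, 13.9 and 16.5 CPM (1.45, SE 0.18). In the coding exon, 0.44 kb downstream (chr6:64729316-64729817), the values were 5.63, 7.41 and 7.97 CPM against 13.1, 14.8 and 13.6 CPM (0.92, SE 0.17, edgeR adjusted p = 5.61e-05). In MEF the 3 sites overlapped in level, and in mESC the site next to the start lay above the others.

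On Illumina too, the Atoh1 site next to the start was the most open in mESC. The site 0.11 kb upstream went from 5.64, 7.70 and 6.10 CPM to 20.1, 23.9 and 23.1 CPM (1.74, SE 0.15), and the site 1.20 kb upstream from 4.90, 5.27 and 3.99 CPM to 15.6, 13.8 and 16.3 CPM (1.64, SE 0.16). The coding exon site, 0.39 kb downstream, went from 7.98, 7.35 and 7.93 CPM to 15.1, 17.1 and 15.8 CPM (1.0, SE 0.14). This coding exon site was the only member on a platform's MEF list and not on its mESC list. A further peak 5.45 kb downstream had a BGI-derived log2 fold change of 1.20.

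Ordered by the mESC level of the most open promoter peak on BGI, the genes ran from Olig2 at 45 ± 7.61 CPM (SD, n = 3) and Olig1 at 40.4 ± 3.74 CPM through Neurog1 at 26.2 ± 1.09 CPM, Neurog2 at 24.5 ± 0.714 CPM and Atoh1 at 22.1 ± 3.42 CPM to Neurod1 at 14.0 ± 0.135 CPM. Olig2 and Olig1 overlapped, as did Atoh1 with Neurog2 and with Neurog1, while Neurod1 lay below all of them. In MEF the order was another one, with Neurog2 first at 12.9 ± 0.760 CPM, Olig1 at 6.83 ± 0.621 CPM, Olig2 at 5.89 ± 0.629 CPM, Atoh1 at 5.25 ± 0.933 CPM, Neurog1 at 4.01 ± 1.02 CPM and Neurod1 at 2.10 ± 0.662 CPM. Apart from Neurog2 above and Neurod1 below, each neighbour in the MEF order overlapped the next. The places of Neurog2 and Neurod1 depend on the limit of 1 kb for a promoter peak. The Neurog2 peak used here lies in the coding exon, and its peak before the start had means of 1.89 CPM in MEF and 9.29 CPM in mESC. The Neurod1 coding exon peak lies beyond the limit, and its means were 14.3 CPM in MEF and 30.1 CPM in mESC. Summed over all peaks of a gene, mESC exceeded MEF by 6.28-fold at Olig1, 6.0-fold at Olig2, 4.3-fold at Neurog1, 4.08-fold at Neurog3, 2.80-fold at Atoh1, 2.69-fold at Neurod1 and 2.46-fold at Neurog2 in BGI-derived data. In Illumina-derived data the ratio ran from 2.22-fold at Neurog2 to 6.75-fold at Olig1. These sums are a description, since all Neurog1 and Neurog3 peaks and 17 of the 24 BGI-derived members entered the table through the mESC list only, whereas Neurog2 had 3 of its 5 peaks on the MEF list.

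**Figure D2:**
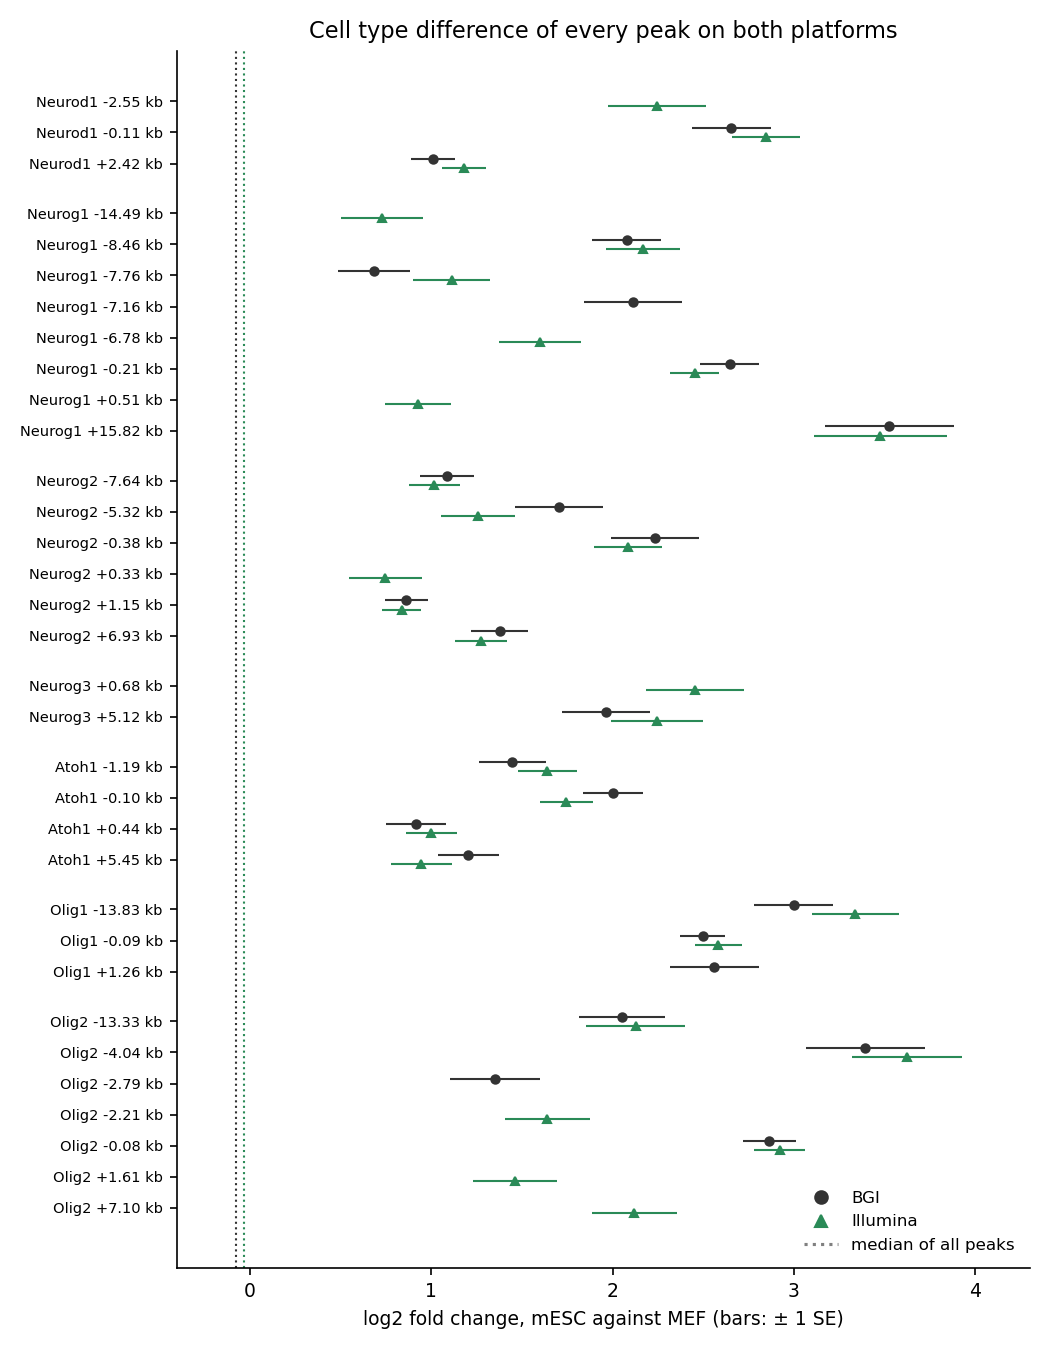
Log2 fold change of each member peak, mESC against MEF, with its standard error, one line per peak ordered by gene and position, for BGI (circles) and Illumina (triangles); dotted lines are the medians over all peaks (−0.08 and −0.03). Every point lies above 0, with BGI-derived values of 0.69 to 3.53 and Illumina-derived values of 0.73 to 3.62.

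The median log2 fold change was 2.23 over 9 promoter members and 1.96 over the 15 others on BGI, and 1.91 over 12 and 1.62 over 18 on Illumina, a difference that was not tested. Over all peaks, 31.3% of BGI-derived promoter peaks and 45.5% of those away from promoters were higher in mESC, with a median of −0.13 for promoter peaks. Within promoters, the sites at or before the start rose more than those in the coding exon at Neurog1, Neurog2 and Atoh1, the 3 genes with both kinds of site on Illumina. These differences between sites of one gene were not tested.

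**Figure D3:**
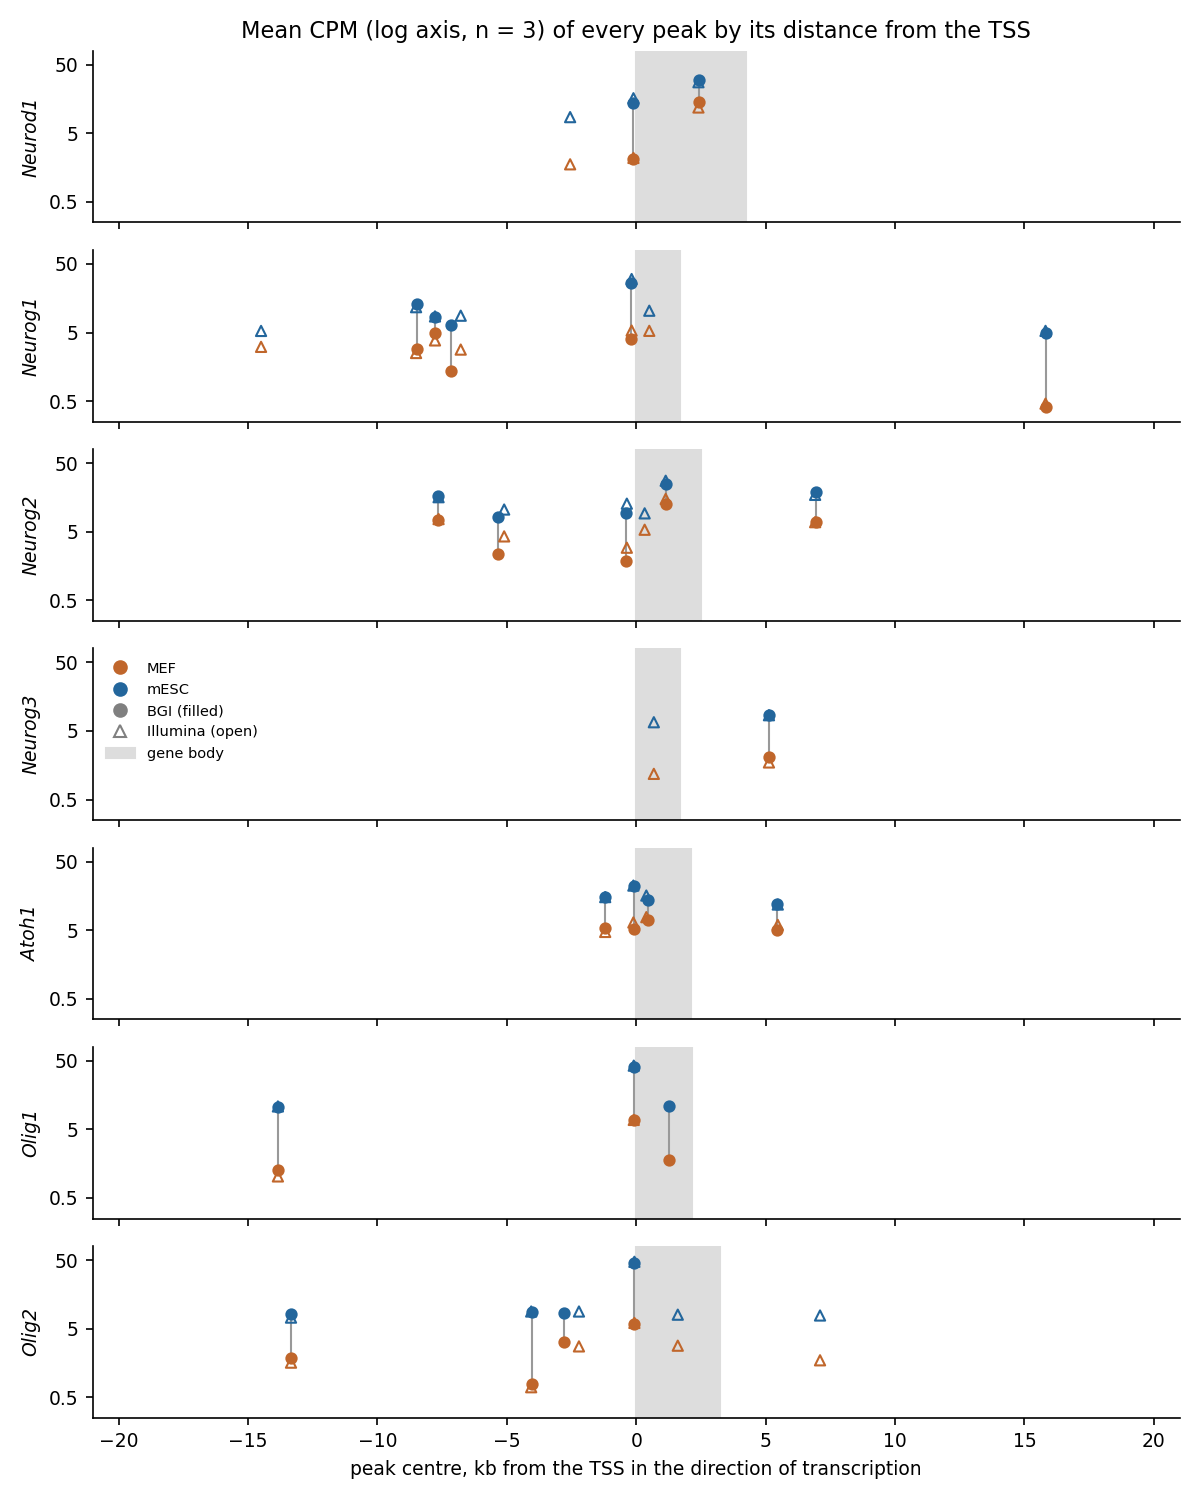
Mean CPM (log axis, n = 3) of every member peak in MEF and mESC against the distance of its centre from the start of the gene in kb, positive downstream, one panel per gene with the gene body in grey. Filled circles are BGI and open triangles Illumina, and grey lines join the cell types of a BGI-derived peak. All mESC points lie above their MEF points, and the longest lines are at the Olig2 peak 4.04 kb upstream and the Neurog1 peak 15.82 kb downstream.

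Peaks that the authors had called in each sample on its own gave a view that does not depend on the shared peak tables. In the windows of the 7 genes the BGI-derived MEF libraries had 46, 45 and 52 summits and the mESC libraries 113, 98 and 107 (47.7 ± 3.79 against 106 ± 7.55, SD, n = 3). Illumina-derived libraries had 49, 49 and 55 in MEF and 117, 102 and 105 in mESC. The groups did not overlap, although mESC samples held fewer reads. The mESC samples had more summits over the whole genome as well, 229198 to 276268 per sample against 216566 to 230117 in MEF.

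The gain in summits was uneven across genes. Across both platforms, Olig1 had 2 to 3 summits in MEF and 12 to 20 in mESC, Olig2 6 to 14 against 26 to 30, and Neurog3 1 to 3 against 12 to 14. Neurog2, with 13 to 18 against 17 to 21, and Atoh1, with 6 to 9 against 9 to 11, gained few. Within 1 kb of the Neurog3 start, where no BGI-derived peak passed into the table, mESC samples had 4 to 5 summits each and MEF samples 0 to 1. The Neurog3 promoter region was therefore called in every mESC library on both instruments, although the BGI-derived table has no peak there.

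The strongest summit also moved between cell types at some genes. At Atoh1 it lay 392 to 442 bp downstream of the start in 5 of 6 MEF samples and 5491 bp downstream in the other, and in mESC it lay upstream in 6 of 6, by 97 to 389 bp. At Neurog1 it lay upstream in the BGI-derived MEF samples, at −7730, −7779 and −14477 bp from the start. In all 3 Illumina-derived MEF samples a summit within 1 kb of the start and one 7765 bp upstream, 8164 bp downstream or 14491 bp upstream were equally strong, and in mESC the strongest summit stayed between 249 and 178 bp upstream. At Neurod1 and Neurog2 it was the coding exon site in all 12 samples, 2393 to 2417 bp and 1124 to 1161 bp downstream. At Olig2 the position stayed within 69 to 105 bp upstream while the fold enrichment over background went from 7.65 to 9.98 in MEF to 53.5 to 87.3 in mESC.

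The rest of the pathway was read from the most open promoter peak of each gene on lists chosen with earlier results of these data known. Of all promoter peaks, 31.3% on BGI and 31.6% on Illumina were higher in mESC, and 41% and 42.4% were lower. Among 15 other class II neural bHLH genes, 10 had a promoter peak on BGI, of which 8 were higher in mESC, 0 lower and 2 not called, with a median log2 fold change of 0.87. On Illumina 8 of 11 were higher and 0 lower (median 0.70). Ascl2 was at 0.95 on BGI and at −0.16, not called, on Illumina, where another of its promoter peaks, with 0 bp in common, was the most open. The largest rises on BGI were at Neurod4 (2.89, SE 0.26), Olig3 (2.43, SE 0.25) and Ptf1a (1.87, SE 0.18), which act in neuronal, dorsal spinal cord and pancreatic or cerebellar fates. Neurod2, Neurod6, Nhlh1 and Nhlh2, factors of neurons that are maturing, had no promoter peak on either platform, and Bhlhe23 had none on BGI.

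Among the partners and inhibitors of the bHLH factors, 2 of 3 E protein genes and all 4 Id genes were lower in mESC, though Id2 and Id4 were not called once library sizes were fixed at the down-sampled depths. Of the E proteins, Tcf3 fell by 0.61 (SE 0.09) and Tcf12 fell by 0.53 (SE 0.15) on the log2 scale in BGI-derived data, and Tcf4 was at −0.02 and was not called. The Id genes had a median of −0.59 on BGI and −0.56 on Illumina. Id1 changed most, from 40.3 ± 4.54 CPM in MEF to 14.2 ± 1.65 CPM in mESC (−1.57, SE 0.11), followed by Id3 (−0.87, SE 0.08) and Id2 (−0.31, SE 0.09). In MEF the 4 Id promoters ran from 40.3 to 65.4 CPM, above every neurogenic promoter peak.

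Hes and Hey repressors and the Notch pathway were divided, with counts near the shares of all promoter peaks. Of 7 Hes and Hey genes with a promoter peak on BGI, 3 were higher, 3 lower and 1 not called, and on Illumina 2 of 8 were higher and 4 lower. Hes3 rose by 2.03, Hes5 by 0.33 and Hey2 by 0.28, and Heyl fell by 0.83, Hes1 by 0.46 and Hes6 by 0.32 on BGI. The call of Hes5 did not hold on Illumina, where the value was −0.01. Of 12 Notch pathway genes, 4 were higher, 5 lower and 3 not called on each platform. At the down-sampled depths 6 were higher on each platform, 4 were lower on BGI and 5 on Illumina, and Hes6 was not called on either. Jag2 (2.07), Dll1 (1.59) and Dll4 (1.01), which encode ligands, had the largest rises on BGI. Of the other ligand genes, Jag1 fell by 0.30 and Dll3 was at 0.25 and not called, though Dll3 rose by 0.59 on Illumina over another peak. At the down-sampled depths Jag1 was not called on BGI (−0.16) and Dll3 was called higher there (0.40). On BGI Lfng, which modifies Notch receptors (−0.99), Notch4 (−0.83) and Notch2 (−0.61) had the largest falls.

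Genes that act downstream of or with the neurogenic factors mostly rose. On BGI 12 of 14 with a promoter peak were higher in mESC and 0 lower (median 1.16), and on Illumina 9 of 14 were higher and 1 lower (median 0.93), which became 11 higher and 1 lower at the down-sampled depths. Barhl1, a target of Atoh1, rose by 3.41, Myt1 by 2.75 and the motor neuron gene Mnx1 by 2.70. Sox10 and Dcx had no promoter peak on either platform. Pax6 was at 1.38 on BGI and −0.45 on Illumina, where another of its promoter peaks, with 0 bp in common, was the most open. Neural cell markers were split, with 6 higher, 2 lower and 3 not called of 11 on BGI (1 lower at the down-sampled depths, without Gfap). On Illumina 6 were higher, 3 lower and 2 not called (2 lower at the down-sampled depths, without Tubb3). Their BGI-derived summed level ran from 148 to 159 CPM in MEF and from 208 to 218 CPM in mESC. Endothelial and blood markers had 1 of 3 higher, Cd68, and Cdh5, Ptprc and Spi1 had no promoter peak. The summed level of that list was 32.1 to 38.5 CPM in MEF and 69.2 to 80.8 CPM in mESC. That rise was in Cd68, at a mean of 11.1 CPM in MEF and 53.8 CPM in mESC, while the endothelial genes Pecam1 (8.97 and 7.74 CPM) and Kdr (14.5 and 14.2 CPM) were not called. Whether other cells in the sorted samples contribute to the member values was not tested.

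**Figure D4:**
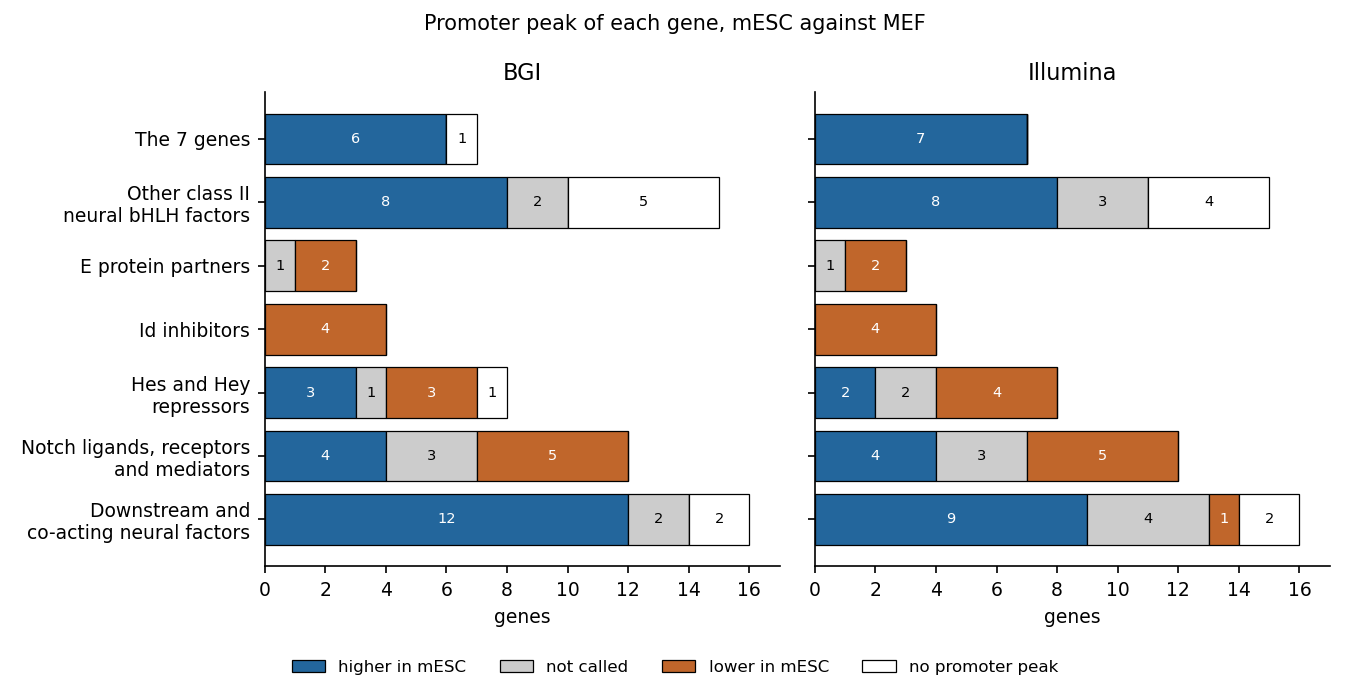
Number of genes of each list whose most open promoter peak was higher in mESC, lower in mESC, not called, or had no peak, on BGI and Illumina. The neurogenic genes are higher in 6 of 6 with a promoter peak on BGI and 7 of 7 on Illumina, while all 4 Id genes are lower on both, Id2 and Id4 not at the down-sampled depths.

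The same libraries were read on both instruments, which asks whether the instrument changed what was seen at these genes. Of the members, 21 BGI-derived and Illumina-derived peaks matched by an overlap of at least 50% of their width, 3 were BGI-derived only and 9 Illumina-derived only. For the matched peaks the BGI log2 fold change minus the Illumina one ran from −0.43 to 0.45, with a median size of 0.17. A difference of the cell type effect between platforms was called at 0 of 24 members by edgeR (0 at an unadjusted p under 0.05, and 0 called by DESeq2), against 0% of all peaks. The estimates ran from −0.45 to 0.40 on the log2 scale. With the library as a block 0 were called and 3 had an unadjusted p under 0.05, against 0.386% of all peaks called. The median over all peaks was 0.11.

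Levels were compared between instruments within each cell type, on peak sets that combine both platforms, with 7 members in the MEF set and 31 in the mESC set. Merged peaks of these sets vary in width, so values are compared only within a peak. No member was called by edgeR in MEF (0 at an unadjusted p under 0.05) or in mESC (7 at an unadjusted p under 0.05), and 0 by DESeq2 in either, where 4.06% and 3.23% of all peaks were called by edgeR. With the library as a block, 1 MEF and 9 mESC members were called, where 29.2% and 21.3% of all peaks were. The MEF peak was the Neurod1 coding exon site, higher on BGI by 0.27 (SE 0.09, edgeR adjusted p = 0.0181). All 9 mESC peaks were lower on BGI, by log2 differences of −0.66 to −0.21, and of all 67063 peaks in that set 15.6% were called lower and 3873 higher.

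The largest of these 9 differences were at sites near 3 gene starts. At the Olig2 site 1.61 kb downstream, BGI-derived values were 4.52, 5.65 and 5.39 CPM and Illumina-derived values 7.02, 9.34 and 7.45 CPM in libraries 1, 3 and 5. At the Neurog1 coding exon site, 0.51 kb downstream, they were 7.97, 8.08 and 6.77 CPM against 9.81, 9.98 and 11.1 CPM, and at the Neurog2 site 0.37 kb upstream 8.22, 10.2 and 10.1 CPM against 12.4, 11.8 and 14.9 CPM. In each of these the BGI-derived value was the lower one in 3 of 3 libraries. Other sites near starts were not called in mESC, among them the promoter peaks of Olig2 (−0.10) and Olig1 (−0.11) and the Neurod1 coding exon site (0.10). Of the 9 sites, those 0.51 kb downstream of the Neurog1 start, 0.33 kb downstream of the Neurog2 start, and 2.21 kb upstream and 1.61 kb downstream of the Olig2 start were Illumina-derived members without a BGI-derived match.

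GC content moved with this difference. The 9 called peaks had a median GC content of 66.7% (57.6% to 73.7%) and the 22 that were not called 58.0% (46.6% to 63.9%). Across the 31 mESC members, which share libraries and depth and are not independent, the log2 difference BGI minus Illumina had a Pearson's r of −0.51 and a Spearman's rho of −0.50 with GC content, and across all 66993 peaks of the set with a GC value r was −0.65 and rho −0.55. The part of GC content in the difference was not tested.

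**Figure D5:**
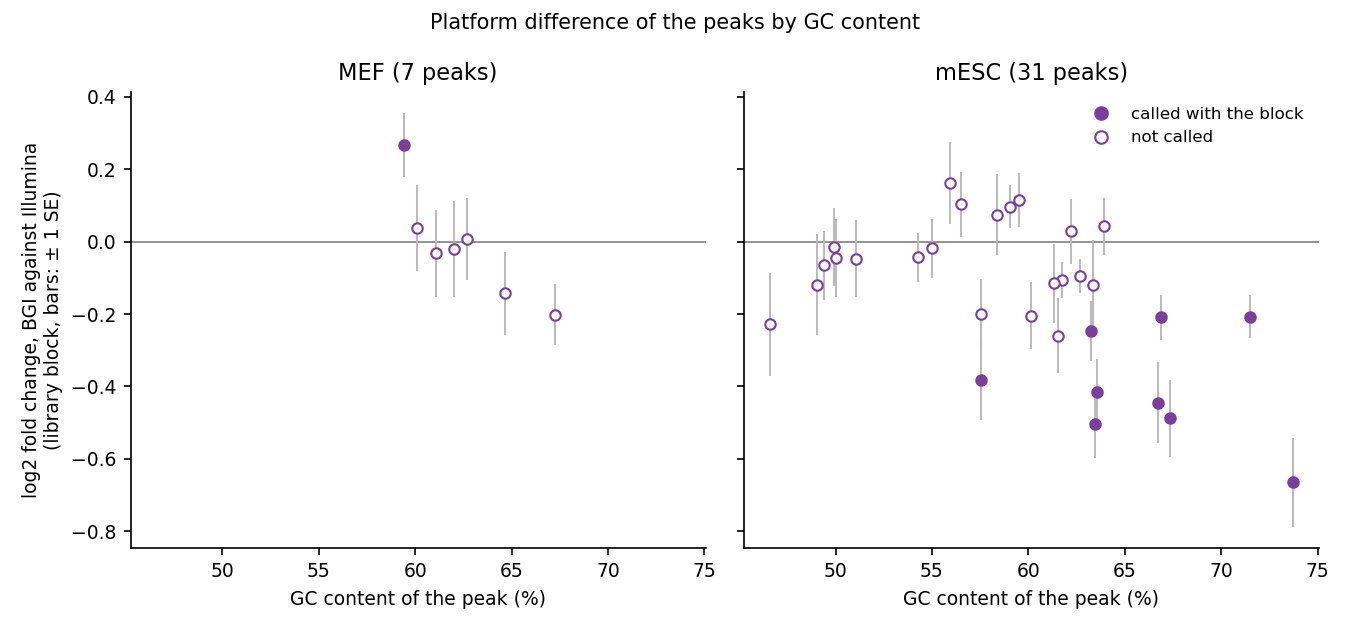
Log2 difference of BGI against Illumina levels with the library as a block, with its standard error, against GC content of the peak in percent, for the 7 MEF and 31 mESC member peaks, filled where called. In mESC the called peaks lie at 57.6% to 73.7% GC and below 0, from −0.66 to −0.21.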

How the data were processed

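OMNI-ATAC-seq was measured in 12 samples, 3 MEF and 3 mESC libraries read on both instruments. The authors mapped 100 bp paired reads to GRCm38 (mm10 in the submitters' processing notes) with bowtie2, removed duplicates and mitochondrial reads, down-sampled, called peaks per sample with MACS2 (p threshold 0.01), and merged them into peaks of fixed width, kept at a depth-scaled score of at least 3 in at least 2 samples. They deposited raw counts of reads per peak. They also deposited per-sample peak lists with MACS2's fold enrichment (a ratio), −log10 p and −log10 q, and a display score derived from the latter. Columns without a platform suffix were taken as Illumina because the others are named BGI. This was checked against the per-sample peaks: in each library the log ratio of BGI to Illumina fold enrichment and that of the counts had a Spearman's rho of 0.757 to 0.799 across peaks.

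Counts were tested with edgeR 4.0.16 (R 4.3.3): TMM, filterByExpr, glmQLFit and glmQLFTest, two-sided, Benjamini-Hochberg over all peaks of a table, called under 0.05. The standard error is the absolute log2 fold change divided by the square root of F. Each platform's table was fitted alone with 3 MEF and 3 mESC samples. Only tests within a table were made. DESeq2 1.42.0 and other settings were tried as alternatives, and the fits were tested on simulated data. CPM are counts per 1000000 reads in peaks.

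For the comparison of instruments, a shared library number marks the same DNA library. Deviations from group means correlated between its BGI and Illumina data at 0.618 to 0.837 in MEF and 0.514 to 0.722 in mESC, so values with the library as a block are given too.

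Values in every sample are given for promoter peaks and for each gene's most open and most changed BGI-derived peak. As a rule, at most 3 genes per list and direction are named. Further genes are named where they had no promoter peak, were not called, differed between platforms or settings, or belonged to a group that the text describes. The members, lists and tests were chosen with earlier results of these data known.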

Additional observations from a re-analysis of the deposited data

How the results depend on the processing

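Under DESeq2, other scalings, other filters, the other platform's samples, summed platforms and leaving out each replicate, 698 of 700 single-peak values kept their direction and their side of the threshold, and 0 reversed. The 2 exceptions arose when BGI samples were counted on the Illumina peak set: the peak 14.49 kb upstream of Neurog1 (0.38, edgeR adjusted p = 0.193) and the one 0.33 kb downstream of the Neurog2 start (0.47, edgeR adjusted p = 0.0505). The number of members higher in mESC stayed at 23 to 24 on BGI and 28 to 30 on Illumina in windows of 20 kb. The 23 arose where a filter for a mean count of at least 50 left the Neurog1 peak 15.82 kb downstream untested. No BGI-derived member that was tested lost its call. Fixing library sizes at the down-sampled depths moved the median of all BGI-derived peaks from −0.08 to 0.06 and of all Illumina-derived peaks from −0.03 to 0.09, and the members' medians to 2.17 and 1.82. With the library as a replicate block, calls between instruments went from 0 to 1 in MEF and from 0 to 9 in mESC, and the interaction stayed at 0. No paired analysis was possible because MEF and mESC share only the number 1, for cells of different origin. The difference in summits per library, mESC minus MEF, was 58.3 on BGI and 57 on Illumina. At −log10 p of at least 10 it was 45 and 42.7, in 5 kb windows 35.3 and 32.7 and in 50 kb windows 114 and 119, fewer or more summits being counted by construction. CPM of low members rest on few reads, and intervals from counts would cover counting error only.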

Other observations

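Extending the windows to 50 kb added 18 BGI-derived and 20 Illumina-derived peaks, of which 11 and 13 were higher in mESC, 1 and 1 lower, and 6 and 6 not called, where 40.9% and 42.1% of all peaks were higher. Of those on the mESC list only, 7 of 8 and 10 of 10 were higher (93.9% and 93.3% of all such peaks), and of those on both lists 4 of 8 and 3 of 8 (21.4% and 21.9%). None of the 2 on the MEF list only was higher on either platform. The following 2 peaks were chosen after their values were seen. The one lower in mESC lay 39.83 kb upstream of Neurod1 (chr2:79496326-79496827), at a mean of 5.88 CPM in MEF and 0.371 CPM in mESC on BGI, which differed by −4.04 on the log2 scale (SE 0.38, edgeR adjusted p = 2.14e-08), and by −3.92 (SE 0.34) on Illumina. The largest rise lay 25.42 kb upstream of Olig2, from 0.528 CPM in MEF to 29.6 CPM in mESC on BGI (5.71, SE 0.24, edgeR adjusted p = 1.23e-12), and was 6.31 (SE 0.25) on Illumina. It exceeded every rise within 20 kb of the 7 genes.

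Among neural cell markers, the promoter peaks of Stmn2, a microtubule regulator of growing axons (3.32, SE 0.17), Sox1, a transcription factor of neural progenitors (2.50, SE 0.15), and Elavl3, a neuronal RNA-binding protein (2.44, SE 0.17), rose most in mESC on BGI. Syt1 fell by 0.57 and Gfap by 0.47 on the log2 scale. Nes, Tubb3 and Elavl4 were not called on BGI, at −0.19, −0.22 and −0.14, and of these Tubb3 was called lower on Illumina (−0.23, edgeR adjusted p = 0.0285). At the down-sampled depths Tubb3 was not called on Illumina either (−0.11).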
